A study of Bos taurus with 10 samples.

Results

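The liver genes described here make urea or handle ammonia: CPS1, OTC, ASS1, ASL, ARG1, NAGS, SLC25A15, GLUD1, GLS2 and GLUL. They were chosen by name, as every probe set (a group of short probes that together read a transcript) whose single gene symbol in the platform annotation is one of these 10. This gave 12 probe sets of 24016 tested, for 9 of the 10 genes. ASL, ARG1 and GLUD1 had 2 probe sets each, the others had 1, and NAGS was not analysed here because no probe set carried its symbol alone.

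The livers came from 40 female Holstein dairy cows, first-calf and older animals with a mean parity of 2.6, whose ages the labels do not give. All cows ate the same partial mixed ration to appetite, with extra concentrate for milk yield. A supplemental concentrate of 630 g dry matter per cow and day, of which 27.3% was a rumen-protected fat, was fed from week 3 before calving to week 14 of lactation. The fat was a control fat in 20 cows and a fat with conjugated linoleic acid (CLA), linoleic acid isomers with conjugated double bonds, in the other 20. Biopsies of lactation week 5 were used. Each pool held RNA of 4 cows, and 5 control pools and 5 CLA pools were hybridized to 1 Affymetrix bovine array each. A pool averages its cows, so the spread between pools is not the spread between cows.

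Urea synthesis spans the mitochondria and the cytosol of the hepatocyte. CPS1 joins ammonia and bicarbonate into carbamoyl phosphate, for which it needs N-acetylglutamate, the product of NAGS. OTC transfers the carbamoyl group to ornithine, and SLC25A15 exchanges ornithine for citrulline across the inner mitochondrial membrane. In the cytosol ASS1 adds aspartate, ASL splits off fumarate, and ARG1 releases urea and returns ornithine. GLUD1 and GLS2 release ammonia from glutamate and glutamine, whereas GLUL, in the hepatocytes around the central veins, binds the remaining ammonia as glutamine. In ruminants the liver also receives ammonia absorbed from the rumen, and part of its urea returns to the gut.

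The deposited values are log2 expression, normalized by the authors, and differences are CLA minus control on that scale, with the standard error (SE) and 95% interval of limma. The correlation between any pair of arrays, over probe sets, lay between 0.988 and 0.996. CLA pool 2 and control pool 4 stood farthest from the rest, with mean correlations of 0.9897 and 0.9905. The array medians were lower in the CLA pools (5.79 to 5.82) than in the control pools (5.83 to 5.85), by 0.031 (exact permutation p = 0.0079, the smallest possible here). The liver label fitted the markers: all 10 hepatocyte markers were measured, and their mean level ran from 12.83 to 13.01 in the control pools and from 12.90 to 13.06 in the CLA pools. In such bulk samples fewer cells of a type and less RNA per cell cannot be told apart.

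None of the 12 probe sets of the chosen genes differed between the diets beyond the spread between pools. By limma, 0 of the 12 probe sets had a Benjamini-Hochberg adjusted p under 0.05 and 0 had an unadjusted p under 0.05, where 0% and 8.89% of all probe sets did. The lowest unadjusted p was 0.0906, at a probe set of ASL, with an adjusted p of 0.622. The CLA and control pools overlapped at all 12 probe sets, and they were apart at 1.97% of all probe sets. At the brightest probe set of each gene 6 genes were higher and 3 lower in the CLA pools (46% of all genes were higher), with a median difference of 0.07 against -0.01 over 9155 genes. That median fell to 0.01 without CLA pool 1, and it was 0.03 without control pool 2, 0.04 without control pool 5, 0.10 without CLA pool 2 and control pool 4, 0.04 after quantile normalization and 0.03 after cyclic loess normalization. Subtracting the array medians, which were lower in the CLA pools, moved it up instead.

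**Figure D1:**
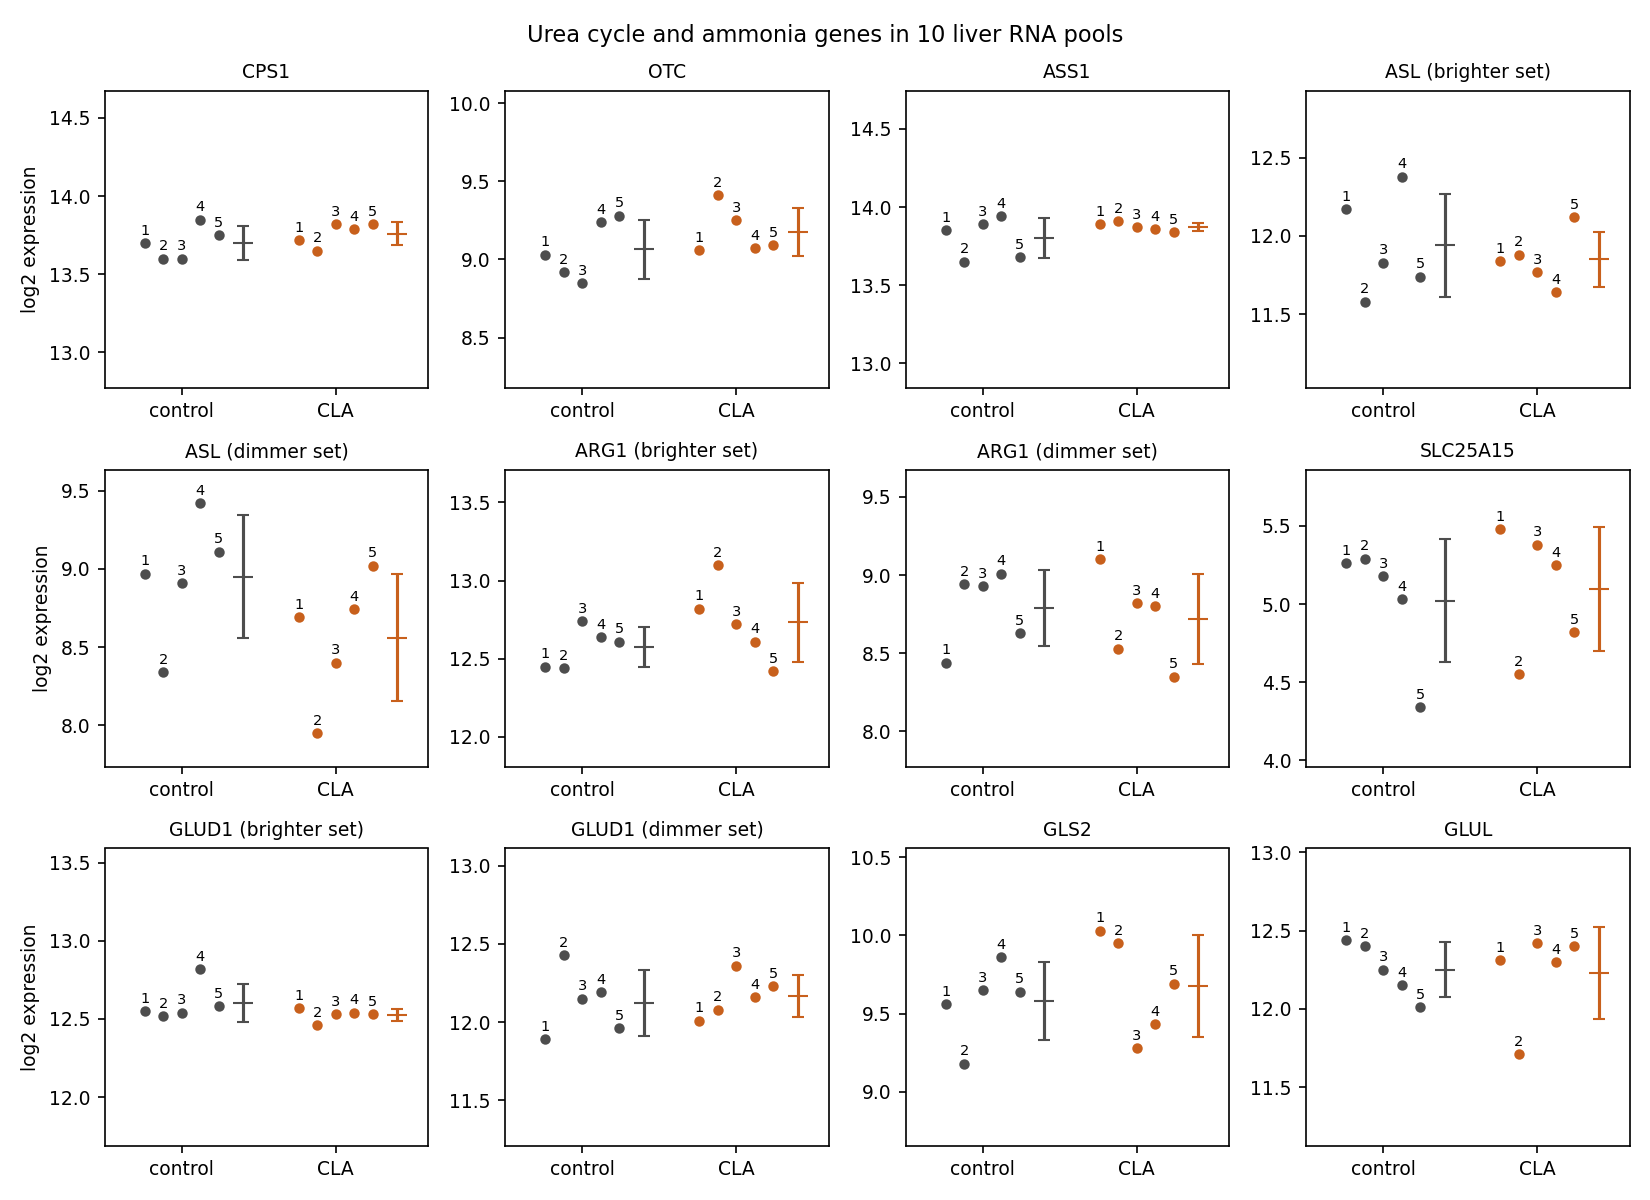
Log2 expression (vertical axes, each spanning the same range of log2 units around its own centre) of the 12 probe sets in the 5 control pools (grey) and 5 CLA pools (orange). Points are single pools with their pool number, and bars give the mean ± SD (n = 5); the groups overlap in every panel.

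The enzyme that commits ammonia to the cycle, CPS1 (probe set Bt.14726.1.A1_at), had log2 values of 13.70, 13.60, 13.60, 13.85 and 13.75 in control pools 1 to 5. In CLA pools 1 to 5 it had 13.72, 13.65, 13.82, 13.79 and 13.82. The 10 pools thus lay within a narrow band, with control pool 4 on top and control pools 2 and 3 at the bottom. The difference was 0.06 ± 0.072 SE, with an interval that ran from 1.07-fold lower to 1.16-fold higher in the CLA pools. It moved to 0.035 without control pool 2 or 3 and to 0.10 without control pool 4.

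OTC (Bt.4269.1.S1_at), the next enzyme, is encoded on the X chromosome. It had 9.03, 8.92, 8.85, 9.24 and 9.28 in control pools 1 to 5 and 9.06, 9.41, 9.25, 9.07 and 9.09 in CLA pools 1 to 5. CLA pool 2 was the highest pool, and control pools 4 and 5 lay above 3 and 4 of the 5 CLA pools. OTC differed by 0.11 ± 0.10 SE, with an interval from 1.08-fold lower to 1.26-fold higher, and by 0.05 without CLA pool 2 and 0.06 without control pool 3.

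SLC25A15 (Bt.20227.2.S1_at), the ornithine carrier, had the dimmest signal of these probe sets. It read 5.26, 5.29, 5.18, 5.03 and 4.34 in control pools 1 to 5 and 5.48, 4.55, 5.38, 5.25 and 4.82 in CLA pools 1 to 5. Control pool 5 and CLA pool 2 were low, and the remaining pools of both diets lay between 4.82 and 5.48. The difference was 0.08 ± 0.21 SE, and the interval, from 1.30-fold lower to 1.45-fold higher, was among the widest of the group. Its direction turned without control pool 5 (-0.09) or without CLA pool 1 (-0.02), and the value was 0.21 when CLA pool 2 and control pool 4 were both left out.

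Of the cytosolic enzymes, ASS1 (Bt.1370.1.S1_at) had 13.85, 13.65, 13.89, 13.94 and 13.68 in control pools 1 to 5. The CLA pools read 13.89, 13.91, 13.87, 13.86 and 13.84. All CLA pools fell inside the control range, and their SD was 0.027 against 0.13 in the control pools (n = 5 each), a contrast in spread that was not tested. ASS1 differed by 0.07 ± 0.072 SE, with an interval from 1.06-fold lower to 1.17-fold higher, and by 0.03 without control pool 2 and 0.04 without control pool 5.

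ASL was read by 2 probe sets, both lower on average in the CLA pools. The brighter one (Bt.10013.1.S1_at) had 12.17, 11.58, 11.83, 12.38 and 11.74 in control pools 1 to 5 and 11.84, 11.88, 11.77, 11.64 and 12.12 in CLA pools 1 to 5. The dimmer one (Bt.17938.2.S1_at) had 8.97, 8.34, 8.91, 9.42 and 9.11 in the control pools and 8.69, 7.95, 8.40, 8.74 and 9.02 in the CLA pools, in the same order. Control pool 4 was the highest pool at both, and CLA pool 2 was lowest at the dimmer probe set only.

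The brighter ASL probe set differed by -0.09 ± 0.15 SE, from 1.33-fold lower to 1.17-fold higher. The dimmer one had the largest difference of the 12, -0.39 ± 0.21 SE, with an interval from 1.80-fold lower to 1.05-fold higher. Without CLA pool 2 and control pool 4 these became 0.01 and -0.12, and the dimmer one was -0.24 without CLA pool 2 alone. With the spread of the array (its interquartile range) as a covariate the dimmer probe set differed by -0.17. It differed by -0.54 without control pool 2 and by -0.51 without CLA pool 5, both with an unadjusted p under 0.05, as with the pool number as a block (-0.39). None of these passed adjustment (adjusted p = 0.477, 0.534 and 0.397). The array interquartile range was 3.80 in CLA pool 2, the highest of the 10, and its part in this difference was not tested further.

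ARG1, which releases the urea, also had 2 probe sets, and they pointed opposite ways. The brighter (Bt.14681.1.A1_at) had 12.45, 12.44, 12.74, 12.64 and 12.61 in control pools 1 to 5 and 12.82, 13.10, 12.72, 12.61 and 12.42 in CLA pools 1 to 5. CLA pool 2 was highest and CLA pool 5 lowest, so the CLA pools spanned the whole control range. This probe set differed by 0.16 ± 0.12 SE, from 1.07-fold lower to 1.33-fold higher, and by 0.07 without CLA pool 2.

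The dimmer ARG1 probe set (Bt.14681.2.S1_at) had 8.44, 8.94, 8.93, 9.01 and 8.63 in the control pools and 9.10, 8.53, 8.82, 8.80 and 8.35 in the CLA pools. Here CLA pool 1 was highest and CLA pool 5 again lowest. It differed by -0.07 ± 0.15 SE, from 1.31-fold lower to 1.19-fold higher. The gap between the 3' and 5' control signals of actin, a sign of RNA integrity, ran from 1.53 to 2.77 in the control pools and from 1.26 to 2.48 in the CLA pools (difference -0.39, exact permutation p = 0.246). The same gap for GAPDH ran from 1.71 to 2.71 in the control pools and from 2.17 to 2.65 in the CLA pools. It differed by -0.006 (exact permutation p = 0.992), and its relation to the probe sets was not tested.

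With diet means removed, the brighter ARG1 probe set was lower where that actin gap was wider. Over the 10 pools Pearson's r was -0.698 (exact permutation p = 0.0356, or 0.623 after Benjamini-Hochberg adjustment over 24 relations), and Spearman's rho was -0.721 (exact permutation p = 0.0311, adjusted 0.373). Without CLA pool 5 and control pool 1 r was -0.411, so the relation rested in part on those pools. With the actin gap as a covariate the ARG1 probe sets differed by 0.05 and -0.21, neither beyond the spread between pools (adjusted p = 0.974 and 0.881). Neutrophils, which carry ARG1 in some species, were represented by 4 of 6 markers, 2 higher and 2 lower, with mean levels of 6.13 to 6.45 in the control pools and 6.03 to 6.60 in the CLA pools; their part in the ARG1 values was not tested.

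**Figure D2:**
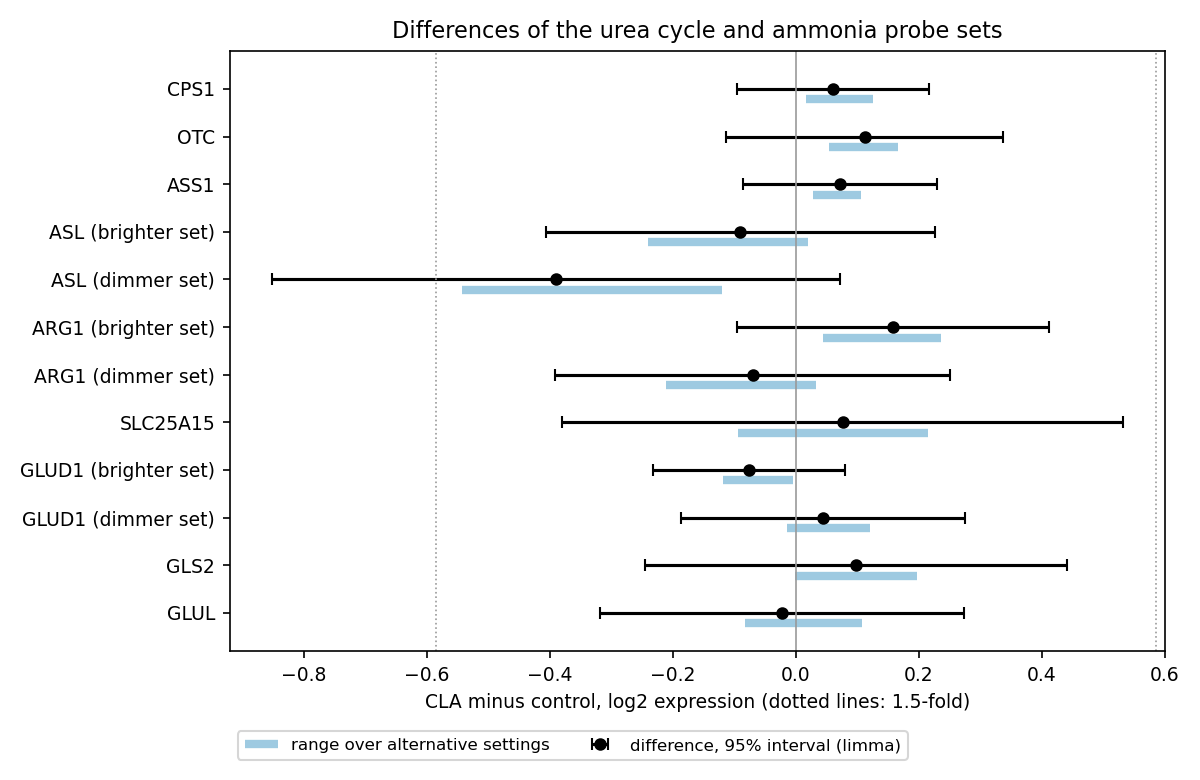
CLA minus control difference in log2 expression (horizontal axis) of the 12 probe sets, with 95% intervals from limma in black and the range over the alternative settings in blue. Every interval includes 0, and only that of the dimmer ASL probe set extends past a 1.5-fold difference (dotted lines).

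Among the enzymes that release ammonia, GLUD1, which frees it from glutamate in the mitochondria, had 2 probe sets. The brighter (Bt.20141.1.S1_at) had 12.55, 12.52, 12.54, 12.82 and 12.58 in control pools 1 to 5 and 12.57, 12.46, 12.53, 12.54 and 12.53 in CLA pools 1 to 5. Control pool 4 stood 0.24 above the next pool, and the other 9 pools lay between 12.46 and 12.58. The difference was -0.08 ± 0.072 SE, from 1.17-fold lower to 1.06-fold higher, and was -0.02 when control pool 4 alone was left out and -0.01 when CLA pool 2 was left out as well.

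The dimmer GLUD1 probe set (Bt.21436.1.A2_at) read 11.89, 12.43, 12.15, 12.19 and 11.96 in the control pools and 12.01, 12.08, 12.36, 12.16 and 12.23 in the CLA pools. It spread more widely and did not repeat the high value of control pool 4. It differed by 0.04 ± 0.11 SE, from 1.14-fold lower to 1.21-fold higher.

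GLS2 (Bt.20157.1.S1_at), the liver glutaminase, had 9.56, 9.18, 9.65, 9.86 and 9.64 in control pools 1 to 5 and 10.03, 9.95, 9.28, 9.43 and 9.69 in CLA pools 1 to 5. The CLA pools split, with pools 1 and 2 above all control pools and pools 3 and 4 below 4 of the 5. GLS2 differed by 0.10 ± 0.16 SE, from 1.18-fold lower to 1.36-fold higher, and by -0.0015 without control pool 2. It moved to 0.01 without CLA pool 1 and 0.03 without CLA pool 2, and to 0.20 without CLA pool 3.

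GLUL (Bt.12472.1.S1_at), glutamine synthetase, had 12.44, 12.40, 12.25, 12.15 and 12.01 in control pools 1 to 5 and 12.31, 11.71, 12.42, 12.30 and 12.40 in CLA pools 1 to 5. CLA pool 2 lay 0.30 below the lowest control pool, and the other CLA pools were within the control range. The difference was -0.02 ± 0.14 SE, from 1.25-fold lower to 1.21-fold higher. Without CLA pool 2 the direction turned, to 0.11. Skeletal muscle, a tissue that a biopsy can pick up and that expresses GLUL, was represented by 6 of 7 markers. Of these 5 were lower in the CLA pools, where 4873 of 9155 genes were. Their mean levels ran from 5.51 to 6.23 in the control pools and from 5.48 to 5.92 in the CLA pools. Control pool 1 was highest at TNNT1 (4.68, other control pools 2.79 to 2.96) and at ACTA1 (5.15, other control pools 3.11 to 4.03). It was not the highest control pool at CKM (8.84 against 9.30 in control pool 3) or MYH7 (9.78 against 9.80 in control pool 4). The same held at TNNT3 (4.45 against 4.60 in control pool 2) and MB (4.47 against 4.53 in control pool 5). Among the CLA pools, pool 5 stood apart at ACTA1 (4.55, other CLA pools 3.33 to 3.52). The part of the muscle markers in the GLUL values was not tested.

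The intervals bound the differences that these pools leave possible. Of the 12 probe sets 11 had a 95% interval that stayed within 1.5-fold in either direction, and for CPS1, ASS1 and the brighter GLUD1 probe set its farther end was 1.16-, 1.17- and 1.17-fold. CPS1 and ASS1 lay at the 99.8 percentile of all probe sets by mean signal and the brighter GLUD1 probe set at 99.0, and whether so bright a signal compresses differences was not tested. The median SD between pools of one diet was 0.222 over the 12 probe sets and 0.152 over all probe sets, as a description.

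**Figure D3:**
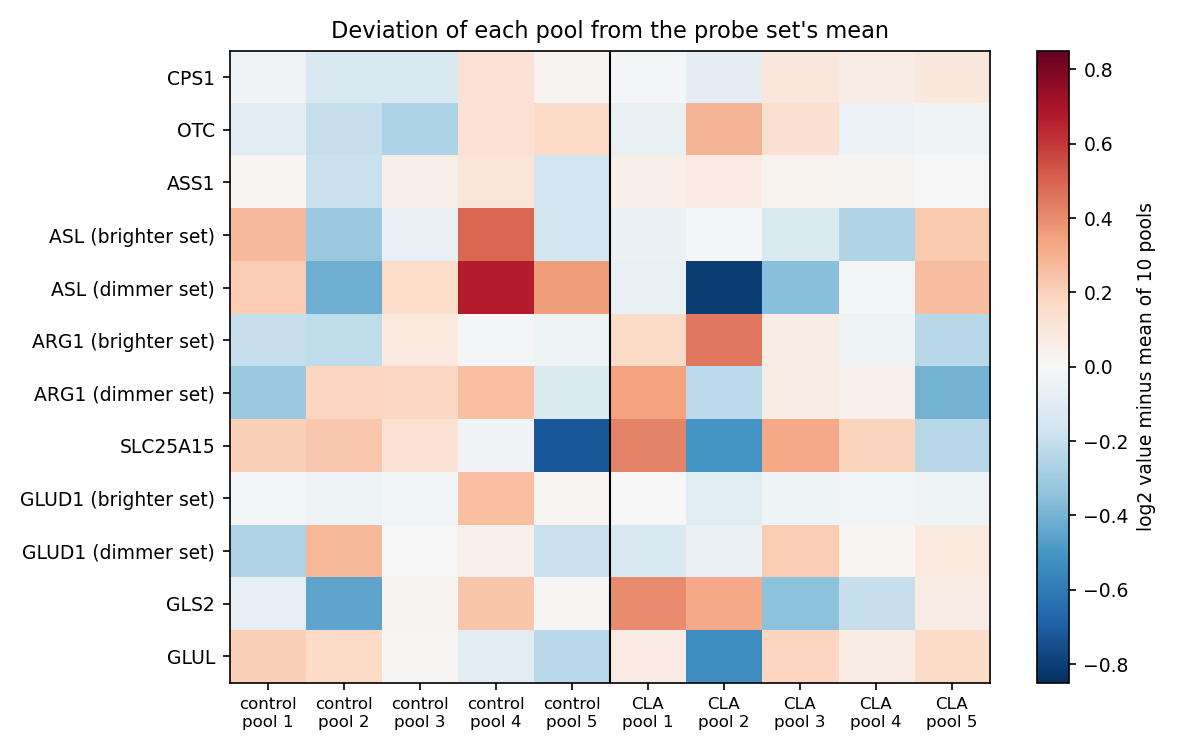
Deviation of each pool (columns, diets separated by the line) from the mean of the 10 pools, in log2 units (colour scale), for each of the 12 probe sets (rows). The strongest deviations are CLA pool 2 at the dimmer ASL probe set (-0.81 against 0.67 in control pool 4) and control pool 5 at SLC25A15 (-0.72), and no row separates the diets.

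No pair of probe sets varied together from pool to pool past the adjusted test. Of 66 pairs of probe sets, compared after removal of the diet means, 39 correlated positively and 27 negatively, with a median Pearson's r of 0.109, and 0 passed after Benjamini-Hochberg adjustment (8 had an unadjusted exact permutation p under 0.05). CPS1 and the dimmer ASL probe set had an r of 0.783 (exact permutation p = 0.0117, adjusted 0.281) and a rho of 0.750 (p = 0.0253), with an r of 0.621 without control pool 4 and CLA pool 2. With the brighter GLUD1 probe set CPS1 had an r of 0.779 (exact permutation p = 0.0128, adjusted 0.281) and a rho of 0.722 (p = 0.0203). Without the same pools that r was 0.572. The dimmer ASL and brighter GLUD1 probe sets had an r of 0.679 (exact permutation p = 0.0396, adjusted 0.327). Their rho was 0.784 (p = 0.00556, adjusted 0.367), and their r was 0.636 without CLA pool 2 and control pool 2. ARG1 at its brighter probe set and GLUL had the largest correlation by size, with an r of -0.787 (exact permutation p = 0.0201, adjusted 0.327) and a rho of -0.685 (p = 0.0445), and an r of -0.513 without CLA pools 2 and 5. OTC and GLUL had an r of -0.705 (p = 0.0277, adjusted 0.327) and a rho of -0.370 (p = 0.308), and an r of -0.227 without CLA pool 2 and control pool 5. SLC25A15 and GLUL had an r of 0.757 (p = 0.0114, adjusted 0.281) and a rho of 0.673 (p = 0.05), and an r of 0.124 without control pool 5 and CLA pool 2, so this relation rested on those pools. ASS1 and GLS2 had an r of 0.544 (exact permutation p = 0.0324, adjusted 0.327) and a rho of 0.588 (p = 0.0715). Without control pools 2 and 4 their r was 0.163. For OTC and SLC25A15 r was -0.681 (exact permutation p = 0.0364, adjusted 0.327) and rho was -0.6 (p = 0.0792). That r was -0.147 without CLA pool 2 and control pool 5.

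None of the 3 genes with a pair of probe sets had sets that correlated past the test. Pearson's r was 0.574 for ASL (exact permutation p = 0.0961, adjusted 0.539; rho 0.382, p = 0.302), and 0.147 without control pools 4 and 2. For ARG1 r was 0.287 (p = 0.496, adjusted 0.836; rho 0.370, p = 0.333), and 0.448 without CLA pools 2 and 5. For GLUD1 r was 0.0245 (p = 0.955, adjusted 0.994; rho -0.0182, p = 0.973), and 0.193 without control pools 4 and 2. Whether the sets of a gene read different transcript forms was not examined.

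The genes whose pool pattern was most like the mean of the 9 genes, after removal of the diet means, were KATNA1, a microtubule-severing protein (Pearson's r 0.958 over 10 pools), RSBN1 (0.930), UBAC1 (0.917), DDRGK1, which acts in protein modification at the endoplasmic reticulum (0.908), VIRMA, a part of the RNA methylation machinery (0.908), and NDUFV1, a subunit of respiratory complex I (0.906). They are the highest of 9146 genes, all measured in the same 10 pools, so no test is attached. Their differences between the diets lay between -0.08 and 0.07.

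Around the cycle, 93 further genes were listed in 8 lists, with earlier results of these data known, so counts over them are a description. Of these genes 60 were measured. At their brightest probe sets 31 were higher and 29 lower in the CLA pools, with a median difference of 0.005. By limma 0 passed after Benjamini-Hochberg adjustment over all probe sets (0% of all genes did), and 8 (13.3%) had an unadjusted p under 0.05, where 8.5% of the 9155 genes did. These 8 were 6 higher (4.35% of all genes) and 2 lower (4.15%). Of 21 alternatives, CTNNB1 had such a p in 9, ADA in 10, SLC25A12 in 11, GPT2 in 16, GOT1 in 17, and GATM, GCSH and NR3C1 in all 21. With single pools left out, ADA lost it without control pool 1, 2 or 4 or CLA pool 1, 2, 3 or 5, SLC25A12 without control pool 2 or 5 or CLA pool 1, 3, 4 or 5, and CTNNB1 without control pool 1, 4 or 5 or CLA pool 2, 3 or 5. GOT1 lost it without control pool 2 or CLA pool 1, and GPT2 without control pool 3 or CLA pool 1 or 2. The count was 4 without CLA pool 1 and 5 without CLA pool 2 or CLA pool 3, 6 without CLA pool 2 and control pool 4, and 4 with the actin gap as a covariate. It rose to 9 with the pool number as a block or with array weights.

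**Figure D4:**
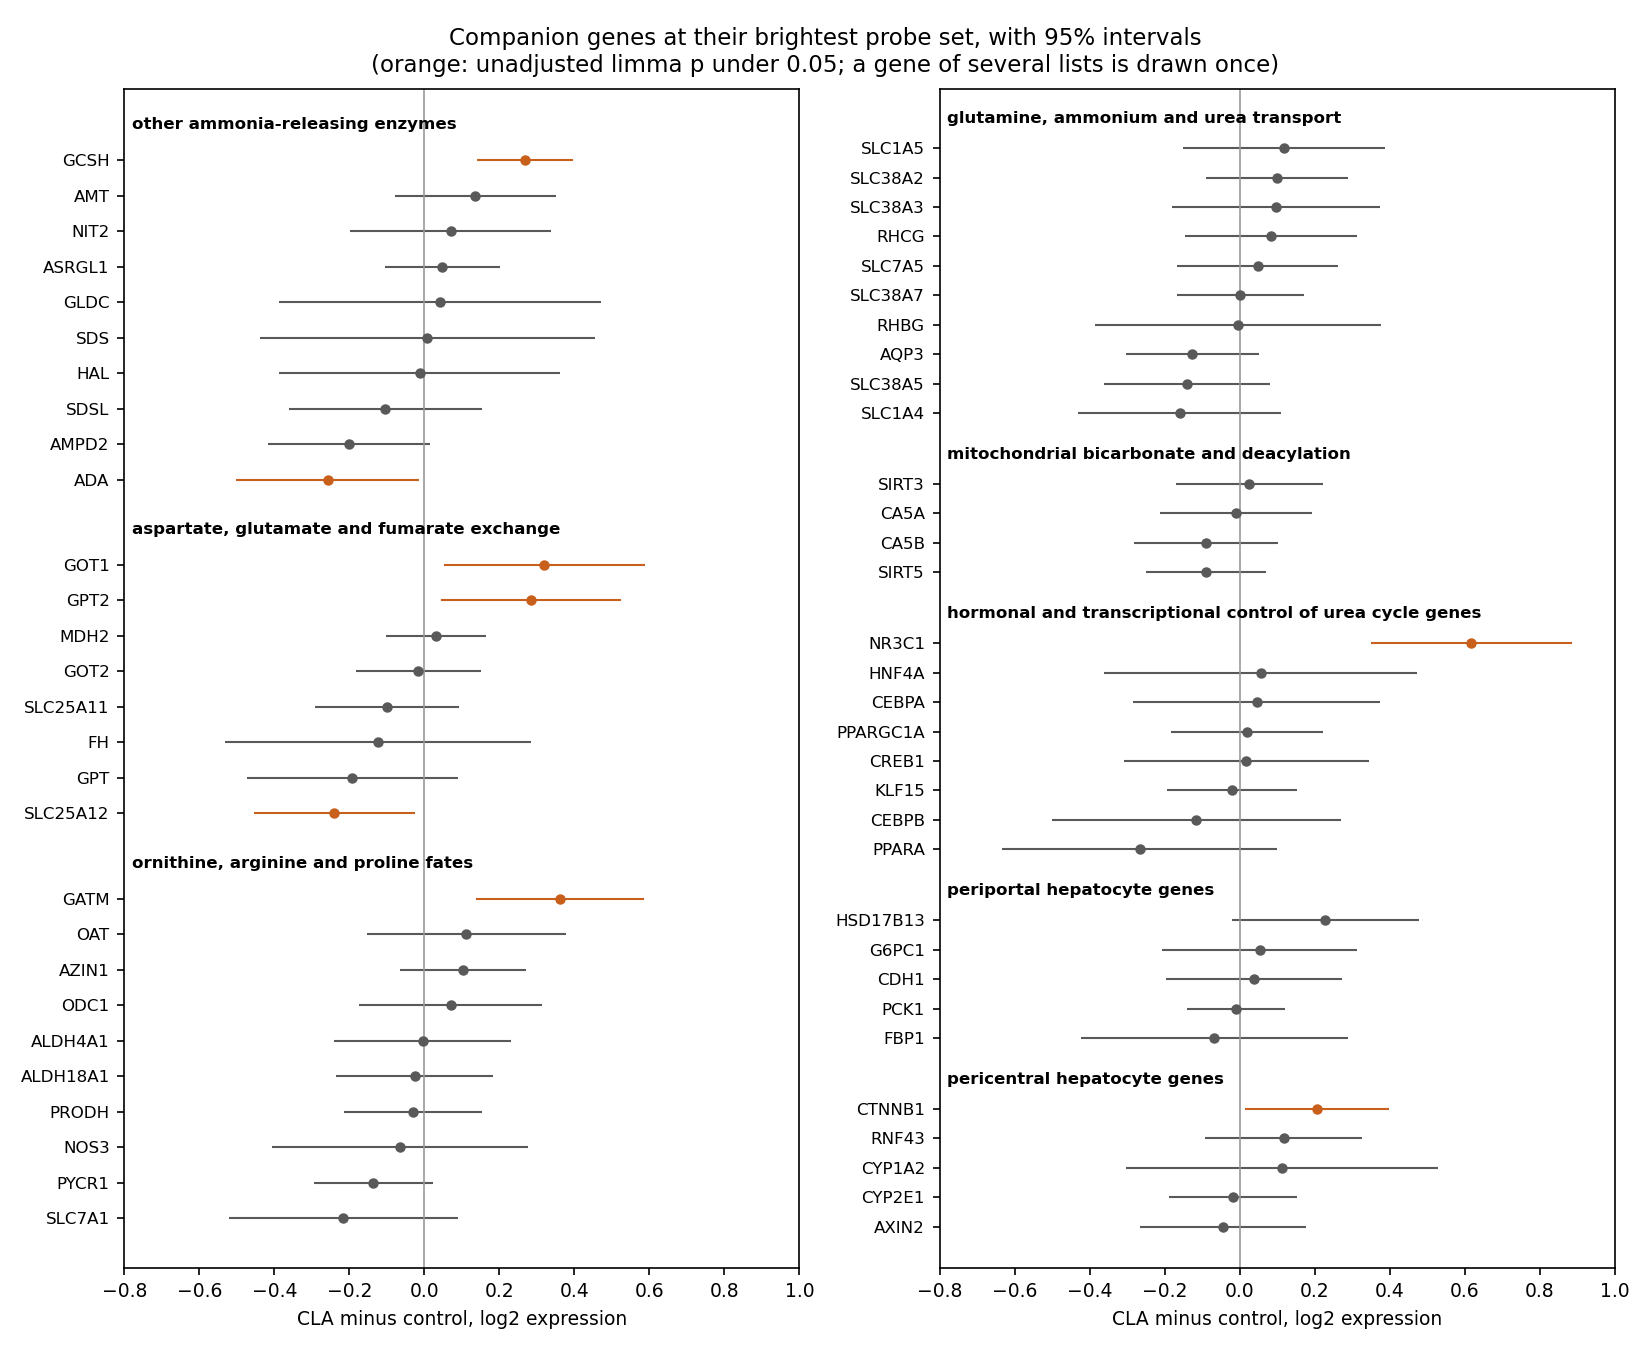
CLA minus control difference in log2 expression (horizontal axes) of the 60 further genes at their brightest probe set, grouped by list, with 95% intervals from limma; orange marks an unadjusted p under 0.05. The 6 orange genes to the right are GCSH, GOT1, GPT2, GATM, NR3C1 and CTNNB1, and the 2 to the left are ADA and SLC25A12.

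Of 10 measured enzymes that release ammonia from other substrates, 6 were higher and 4 lower (median 0.02), and 1 in each direction had an unadjusted p under 0.05. GCSH, the carrier protein of the glycine cleavage system, had 9.95, 10.07, 10, 10.07 and 10.04 in control pools 1 to 5 and 10.33, 10.25, 10.33, 10.28 and 10.28 in CLA pools 1 to 5. All CLA pools lay above all control pools, which held for 1.47% of genes. The difference was 0.27 ± 0.059 SE (1.20-fold, adjusted p = 0.283), but the second GCSH probe set differed by 0.01 ± 0.091 SE. Of the same system, AMT differed by 0.14 ± 0.099 SE and GLDC by 0.04 ± 0.20 SE, neither beyond the spread between pools.

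ADA, adenosine deaminase, had 8.92, 8.77, 8.54, 8.74 and 8.32 in the control pools and 8.35, 8.28, 8.31, 8.62 and 8.44 in the CLA pools. The groups overlapped, with control pool 5 among the low values, and the difference was -0.26 ± 0.11 SE (adjusted p = 0.546). ADA is also abundant in lymphocytes. Of the measured markers of T and NK cells 10 of 10 had a lower mean in the CLA pools (median difference -0.17), where 4873 of 9155 genes did. Of these markers 1, ZAP70, had an unadjusted p under 0.05, and 0 passed adjustment. Their mean levels ran from 6.59 to 7.06 in the control pools and from 6.45 to 6.73 in the CLA pools, and their part in the ADA difference was not tested. The amino acid ammonia-lyase HAL (-0.01 ± 0.17 SE) and the serine dehydratase SDS (0.01 ± 0.21 SE) were centred near 0 with wide errors.

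Of 8 measured genes that exchange aspartate, glutamate and fumarate with the cycle, 3 were higher and 5 lower (median -0.06), and 2 higher and 1 lower had an unadjusted p under 0.05. GOT1, the cytosolic aspartate aminotransferase, had 9.36, 9.15, 9.42, 9.68 and 9.36 in the control pools and 10.05, 9.83, 9.42, 9.65 and 9.62 in the CLA pools, so CLA pools 1 and 2 stood above the control range. It differed by 0.32 ± 0.12 SE (adjusted p = 0.494). The mitochondrial GOT2 differed by -0.02 ± 0.077 SE at its brighter probe set. GPT2, an alanine aminotransferase, differed by 0.28 ± 0.11 SE (adjusted p = 0.497), with CLA pools 1, 2 and 5 above the control range.

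SLC25A12, a mitochondrial aspartate-glutamate carrier, was the 1 gene of that list with lower CLA values and an unadjusted p under 0.05, at 5.21, 5.59, 5.27, 5.14 and 5.42 in the control pools and 4.96, 5.32, 5.01, 5.06 and 5.08 in the CLA pools. CLA pool 2 alone reached into the control range. The difference was -0.24 ± 0.099 SE (adjusted p = 0.525), and its other probe sets differed by -0.06 and -0.12. FH, which hydrates the fumarate that ASL releases, differed by -0.12 ± 0.19 SE.

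Of 10 measured genes that use ornithine, arginine or proline, 4 were higher and 6 lower (median -0.01), and GATM alone had an unadjusted p under 0.05. GATM, which takes the amidino group of arginine for creatine synthesis and returns ornithine, had 12.25, 12.43, 12.69, 12.23 and 12.65 in the control pools and 12.73, 12.93, 12.77, 12.71 and 12.92 in the CLA pools. All CLA pools lay above all control pools (as for 1.47% of genes), although control pools 3 and 5 came within 0.1 of the lowest CLA pool. The difference was 0.36 ± 0.10 SE (1.29-fold, adjusted p = 0.379). OAT, which turns ornithine into a precursor of glutamate and proline, differed by 0.11 ± 0.12 SE, and ODC1, the first enzyme of polyamine synthesis, by 0.07 ± 0.11 SE.

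Of 10 measured transporters of glutamine, ammonium or urea, 6 were higher and 4 lower (median 0.02), and 0 had an unadjusted p under 0.05. The water and glycerol channel AQP3 had the lowest p at the brightest probe set (-0.13 ± 0.081 SE, adjusted p = 0.694). Over all 15 probe sets of this list 1 had an unadjusted p under 0.05, the dimmer of SLC1A4, a neutral amino acid carrier, named after its value was seen (0.23 ± 0.097 SE, against -0.16 ± 0.12 SE at the brighter). SLC38A3, a glutamine carrier of hepatocytes, differed by 0.10 ± 0.13 SE, and RHBG, an ammonium transporter of the perivenous hepatocytes, by -0.004 ± 0.18 SE. Of 4 measured genes of mitochondrial bicarbonate supply and deacylation 1 was higher and 3 lower (median -0.05). CA5A, the carbonic anhydrase that supplies CPS1 with bicarbonate, differed by -0.01 ± 0.093 SE, and SIRT5, which removes acyl groups from CPS1, by -0.09 ± 0.073 SE.

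Of 8 measured hormone receptors and transcription factors that act on urea cycle genes, 5 were higher and 3 lower (median 0.02), and NR3C1 alone had an unadjusted p under 0.05. NR3C1, the glucocorticoid receptor, had an interval from 0.35 to 0.89 around its difference of 0.62 (adjusted p = 0.272), with CLA pools at 8.52 to 8.93 and control pools at 7.69 to 8.40. These pools did not overlap, and 1.47% of genes had all CLA pools above all control pools. The second NR3C1 probe set, dim at a mean signal of 2.985, differed by 0.23 ± 0.11 SE with overlapping pools. The other 7 genes had unadjusted p-values of 0.14 or more, among them HNF4A (0.06 ± 0.19 SE) and CEBPB (-0.12 ± 0.18 SE).

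Genes of the lobular zones in which these enzymes work were also listed. Over all genes 8.5% had an unadjusted p under 0.05 by limma. Of 7 measured periportal genes 4 were higher and 3 lower (median 0.01), and 0 had an unadjusted p under 0.05, with HSD17B13 at 0.23 ± 0.11 SE (adjusted p = 0.589), a value that was 0.08 without CLA pool 2 and control pool 4. PCK1 differed by -0.01 ± 0.060 SE. Of 7 measured genes listed as pericentral 4 were higher and 3 lower (median 0.11), and CTNNB1 alone had an unadjusted p under 0.05. CTNNB1, beta-catenin, which carries the signal that keeps GLUL on around the central veins, differed by 0.21 ± 0.088 SE (adjusted p = 0.538). Of the other genes of this list AXIN2 (-0.04 ± 0.10 SE) and CYP2E1 (-0.02 ± 0.078 SE) were lower, neither beyond the spread between pools. Of the remaining genes of the list RNF43 (0.12 ± 0.096 SE), CYP1A2 (0.11 ± 0.19 SE) and OAT (0.11 ± 0.12 SE) were higher. RHBG was lower (-0.004 ± 0.18 SE), and none of them had an unadjusted p under 0.05.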

How the data were processed

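RNA of 4 cows per pool was profiled on 1 array per pool, 5 pools per diet, grouped by sample title. The table the authors deposited holds normalized log2 values. Per the submitters' processing notes they used Affymetrix Expression Console 1.1 and RMA; settings are not given in the sources used here. Values carry 2 decimals and were used as deposited. Of 24128 probe sets 112 manufacturer controls were left out. Names came from the platform annotation (13292 probe sets with 1 symbol, 86 with several, 10638 with none). The gene IDs of 13263 matched the RefSeq table of ARS-UCD2.0, with 0 symbols changed; no coordinates or sequences are given.

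Each difference came from limma 3.58.1 (lmFit, eBayes; R 4.3.3) on all 10 arrays without covariates, two-sided, and adjusted by the Benjamini-Hochberg method over 24016 probe sets; the fit was tested on simulated data. The limma p-values set each difference against the spread between pools, with a variance estimate that draws on all probe sets. Permutation tests were exact and two-sided, over 252 groupings of the arrays, or over rearrangements of pools within each diet for correlations.

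Genes and lists were chosen with earlier results of these data known. Named were all chosen genes, per list up to 4 genes of smallest p with unadjusted p under 0.05 (otherwise the 1 of smallest p), and the 6 genes of most similar pattern; further genes of the lists were picked for their role after their values were seen. Alternatives left out each pool, added the pool number as a block, dropped the dimmest 30% of probe sets, renormalized (quantile, array medians, cyclic loess), changed the variance model or array weights, averaged a gene's probe sets, or added array spread; the actin gap as a covariate was chosen after seeing the data. The count over companion genes was also added then. The number of arrays limits the precision, and no detection calls were used.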

Additional observations from a re-analysis of the deposited data

Results flagged for a closer look

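In groups of 5 pools, a pool was singled out where its gap to the nearest other pool, divided by the range of the group, exceeded 0.71. Among 58 groups (29 probe sets, 2 diets) 4 were singled out, and chance alone singles out about 1 in 20. SLC25A15 in control pool 5 was 4.34, with the next control pool at 5.03. The brighter GLUD1 probe set in control pool 4 was 12.82, with the next at 12.58. GLUL in CLA pool 2 was 11.71, with the next CLA pool at 12.30. HSD17B13 in CLA pool 2 was 13.61, with the next at 13.12. CLA pool 2 and control pool 4 are also the arrays with the lowest mean correlation with the rest, and the cause was not tested.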

How the results depend on the processing

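Over the alternatives, 0 probe sets of the urea cycle and ammonia genes passed the adjusted test, and 237 of 255 recomputed differences kept their direction. The adjusted p ranged from 0.397 to 0.999. With single pools left out GLUL ranged from -0.082 to 0.1075, SLC25A15 from -0.094 to 0.2125, the brighter ASL probe set from -0.18 to 0.02, the dimmer ARG1 probe set from -0.165 to 0.0225, the dimmer GLUD1 probe set from -0.0145 to 0.1205 and GLS2 from -0.0015 to 0.197. GLUL was also positive without CLA pool 2 and control pool 4 (0.0825), with array medians subtracted (0.009), with array weights (0.0301), and with array spread (0.0386) or the actin gap (0.0576) as covariate. Without those pools the brighter ASL probe set stood at 0.0125 and the dimmer ARG1 probe set at 0.0325, and SLC25A15 at -0.00088 with array spread. The cause was not tested. The number of these probe sets with an unadjusted p under 0.05 ranged from 0 to 1 with single pools left out. It was 1 with the pool number as a block, that of the dimmer ASL probe set (adjusted p = 0.397). Pools of the same number did not deviate together (correlations from -0.086 to 0.092 over probe sets; 2 of 10 pools correlated best with their own number), so the numbers are not taken as pairs. The median difference of the 9 genes ranged from 0.0095 to 0.0975 with single pools left out. The count of 8 companion genes ranged from 4 to 8 with single pools left out, was 5 with array spread and 4 with the actin gap as covariate. It was 9 with the pool number as a block and 9 with array weights. Over all probe sets 962 of 2135 with an unadjusted p under 0.05 were higher, against 1100 of 1917 after quantile normalization, 1474 of 2101 with array medians subtracted and 1196 of 1975 after cyclic loess normalization. Averaging a gene's probe sets gives no count of probe sets.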
